A study of Homo sapiens with 16 samples.

Results

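The genes described here are 9 secreted plasma proteins of the complement system and the acute-phase response: C3, C5, CFB, CFI, HP, HPX, CP, ORM1 and SERPINA3. They were picked by symbol from the 60623 identifiers in the data, and all 9 were found. They were followed in 16 libraries from a gut-liver-on-a-chip, a microfluidic device made of PDMS in which gut and liver cells sit in separate chambers that can be joined by circulating medium. Caco-2 cells, a colorectal adenocarcinoma line used as a model of the gut epithelium, and HepG2 cells, a hepatocellular carcinoma line used as a model of the liver, were each kept in mono-culture or in co-culture with the other line, and each culture was left as a control or given 1 mM of free fatty acids (FFA; palmitic and oleic acid at 1:2), for 1 day per the labels, while the study also describes a longer treatment. This gave 8 groups of 2 libraries, 4 groups for each line. The growth medium held fetal bovine serum, while fatty-acid-free BSA and no serum is listed for the FFA medium, so an effect of FFA and one of the change of medium cannot be told apart where controls stayed in growth medium. The labels' extraction text names primary myoblasts, whereas every other label names the Caco-2 or HepG2 line. Both are established lines without immune cells. The study's methods speak of independent experiments for its mRNA sequencing, but the labels do not say whether the 2 replicates of a group were separate cultures, so p-values may measure only the spread between these libraries.

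The liver makes most plasma complement and most acute-phase proteins. In inflammation, interleukin-6 acting through STAT3, together with interleukin-1 and C/EBP and NF-kB factors, raises the transcription of positive acute-phase genes in hepatocytes, while negative acute-phase proteins such as albumin and transferrin fall. Complement is a cascade of plasma proteases: C3 is the protein on which its pathways meet, factor B (CFB) forms the alternative-pathway convertase, factor I (CFI) cleaves and inactivates the activated forms of C3 and C4, and C5 starts the membrane attack complex. Of the acute-phase members, haptoglobin (HP) binds free haemoglobin, hemopexin (HPX) binds free haem, ceruloplasmin (CP) is a copper-carrying ferroxidase, orosomucoid 1 (ORM1) is a lipocalin that binds small lipophilic molecules, and SERPINA3 (alpha-1-antichymotrypsin) inhibits proteases such as cathepsin G.

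On GRCh38 the complement members lie at chr19:6677704-6730562 (C3, ENSG00000125730, minus strand), chr9:120932987-121075195 (C5, ENSG00000106804, minus strand), chr6:31945650-31952086 (CFB, ENSG00000243649, plus strand) and chr4:109731008-109802150 (CFI, ENSG00000205403, minus strand). The acute-phase members lie at chr16:72054505-72061055 (HP, ENSG00000257017, plus strand), chr11:6431049-6442617 (HPX, ENSG00000110169, minus strand), chr3:149162410-149221829 (CP, ENSG00000047457, minus strand), chr9:114323098-114326479 (ORM1, ENSG00000229314, plus strand) and chr14:94612384-94624055 (SERPINA3, ENSG00000196136, plus strand). All 9 are protein-coding, and the values count reads over a whole gene.

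The libraries held 49634 to 1657412 reads, and both the deepest and the shallowest were HepG2 co-culture libraries. Levels are given as CPM, a gene's count divided by its library's total reads and scaled up, so 1 read stood for 0.603 to 20.1 CPM and a count of 0 allows up to 3 reads, or 1.81 to 60.4 CPM. All 12 hepatocyte markers chosen for the check were detected in every HepG2 group, with summed levels of 34006 to 56433 CPM, and for 9 of the 12 the lowest HepG2 library was above the highest Caco-2 library. The same 12 were also detected in every Caco-2 group (summed 5095 to 7432 CPM), and VTN was separated the other way, with every Caco-2 library on top. Of 14 enterocyte markers, 5 separated the lines in favour of Caco-2, and FABP2 did so in favour of HepG2. In the HepG2 libraries CDX1, CDX2, CDH17, GPA33, SI and MUC13 had no read. CDX1 had none in Caco-2 either, where SI and GPA33 reached at most 1.98 and 5.65 CPM. VIL1 overlapped between the lines (14.5 to 101 CPM in HepG2, 24.6 to 68.7 in Caco-2). ANPEP had a mean of 11.3 CPM in HepG2 and 1.87 in Caco-2. In both lines PTPRC, MARCO and C1QA, which mark leukocytes and macrophages, had no read. Of the same list of 7, LYZ and CD68 had reads in both lines. CD14 and CD163 had reads in Caco-2 alone, at most 9.23 and 2.82 CPM.

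Of the 9 members, 8 were higher in HepG2 than in Caco-2 cells and HPX did not pass the test. On the log2 scale the difference was largest for SERPINA3 and HP and smallest, among those that passed, for ORM1. That of CFI came next to HP. The pooled ratio of CFI was 179 against 136 for HP, but it fell below those of C3 and C5 once the reads of a feature that overlaps CFI were added. With limma's moderated test on log2(CPM + 1), averaged over the 4 conditions, 8 of 9 members had a Benjamini-Hochberg adjusted p under 0.05 in favour of HepG2, against 12.5% of the 17544 features tested. The same 8 were higher in every HepG2 library than in every Caco-2 library, against 4.3% of features. The members' median log2 difference was 4.21, and that of all features was -0.16.

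**Figure D1:**
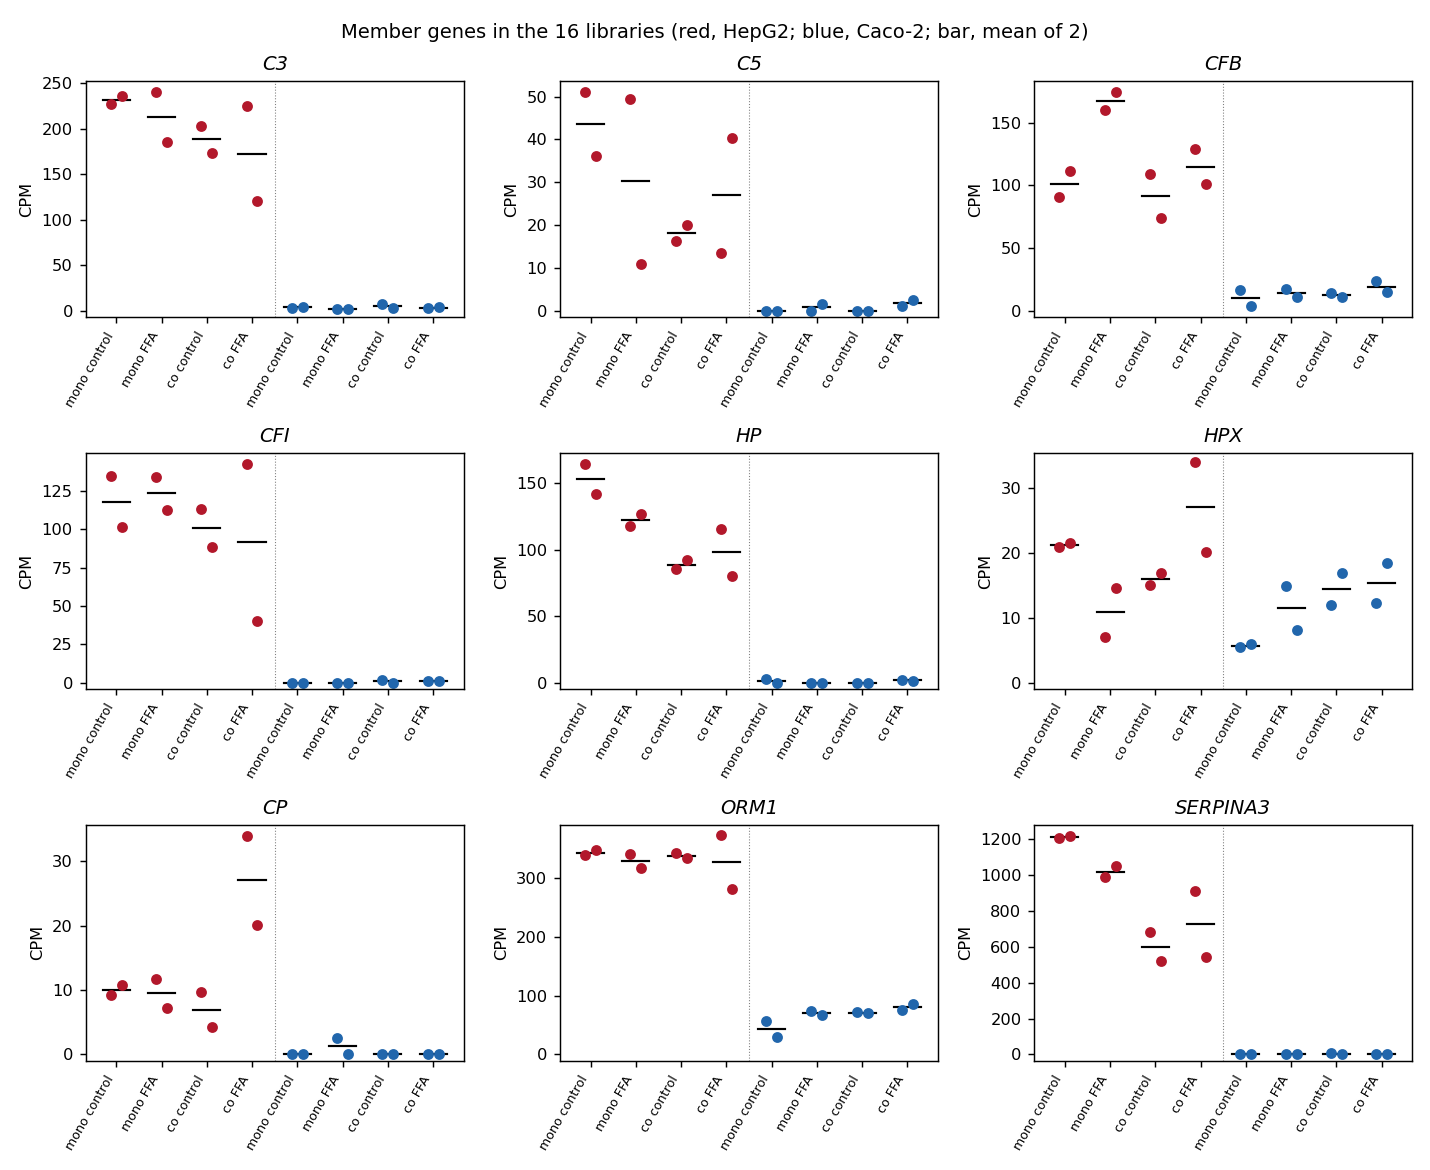
Level of each member, in CPM on a linear axis, in the 8 groups (x axis), with 1 point per library and a bar at the mean of 2. The HepG2 and Caco-2 points are apart for every gene but HPX, SERPINA3 and HP are lower in HepG2 co-culture than in mono-culture, and the HepG2 points of ORM1 lie between 282 and 374 CPM.

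Among the complement members, C3 had 227 and 236 CPM in HepG2 mono-culture controls, 240 and 186 with FFA, 203 and 173 in co-culture controls, and 224 and 121 in co-culture with FFA. In Caco-2 cells it had 1.60 to 7.93 CPM, 1 to 4 reads in each library. The lines differed by 5.51 (SE 0.23) on the log2 scale (limma adjusted p = 3.59e-10). C3 was thus detected in every library of the gut line, and no Caco-2 library came near a HepG2 one.

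CFI itself had hardly any reads in the gut line. It had 40.3 to 143 CPM in the HepG2 libraries (median 113) and 3 reads in all 8 Caco-2 libraries together, each in a co-culture library. Pooled over the libraries of a line, which weights deep libraries more, its rate was 179 times higher in HepG2 (95% interval 61.0 to 872, exact, counting error only), and 18.6 times with the 55 Caco-2 reads of the overlapping feature AC126283.2 and its HepG2 reads added, against 56.6 for C3. C5 had 10.9 to 51.1 CPM in HepG2 and 4 reads in Caco-2, 3 of them in co-culture with FFA. Its log2 difference was 4.21 (SE 0.41, limma adjusted p = 2.38e-06).

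CFB differed least among the complement members. It had 74.0 to 175 CPM in HepG2 (median 110) and 3.53 to 23.6 CPM in Caco-2 (median 14.3), where it was seen in all 8 libraries with 69 reads in all. The log2 difference was 3.07 (SE 0.26, limma adjusted p = 5.23e-07). The mean Caco-2 level of CFB was 11.8% of the mean HepG2 level, against 1.80% for C3 and 0.489% for CFI (5.21% with AC126283.2).

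Of the acute-phase members, SERPINA3 had 520 to 1219 CPM in HepG2 and 0 to 5.94 CPM in Caco-2, with 4255 and 8 reads in the lines. The log2 difference was 8.49 (SE 0.19, limma adjusted p = 1.05e-12). HP had 80.6 to 165 CPM in HepG2 and 4 reads in the 8 Caco-2 libraries (log2 difference 6.24, SE 0.29, adjusted p = 1.07e-09). The Caco-2 mean of SERPINA3 was 0.21% of its HepG2 mean, and that of HP 0.652%. Over the 12 hepatocyte markers this share ran from 0.174% for TF (transferrin), 0.308% for AMBP and 1.64% for FGB, through 5.68% for AFP, to 128% for TTR and higher still for APOC3 and VTN. SERPINA3 and HP thus stood near the lower end of the markers' range.

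CP was the scarcest member. It had 4.22 to 34.0 CPM in HepG2, from 48 reads in all, and 1 read in Caco-2 (pooled ratio 47.4, exact 95% interval 8.10 to 1909). It lost its call when every library was thinned to the 49634 reads of the shallowest.

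ORM1 and HPX were the acute-phase members that Caco-2 cells also expressed. ORM1 had 282 to 374 CPM in HepG2 and 29.4 to 85.0 CPM in Caco-2, from 1687 and 322 reads, and differed by 2.37 on the log2 scale (SE 0.13, limma adjusted p = 6.80e-09). HPX had 7.06 to 34.0 CPM in HepG2 (median 18.5) and 5.48 to 18.5 CPM in Caco-2 (median 12.1), and the libraries of the lines overlapped. Its log2 difference was 0.64 (SE 0.26, limma adjusted p = 0.0782), and over all alternatives the adjusted p ran from 0.0264 to 0.56. HPX was called without any 1 of 5 libraries: HepG2 mono-culture FFA replicate 1 (log2 difference 0.76), HepG2 co-culture FFA replicate 2 (0.73), Caco-2 mono-culture FFA replicate 1 (0.74), Caco-2 co-culture control replicate 2 (0.70) or Caco-2 co-culture FFA replicate 2 (0.71). The pooled HPX rate was 1.47 times higher in HepG2 (exact 95% interval 1.04 to 2.10).

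**Figure D2:**
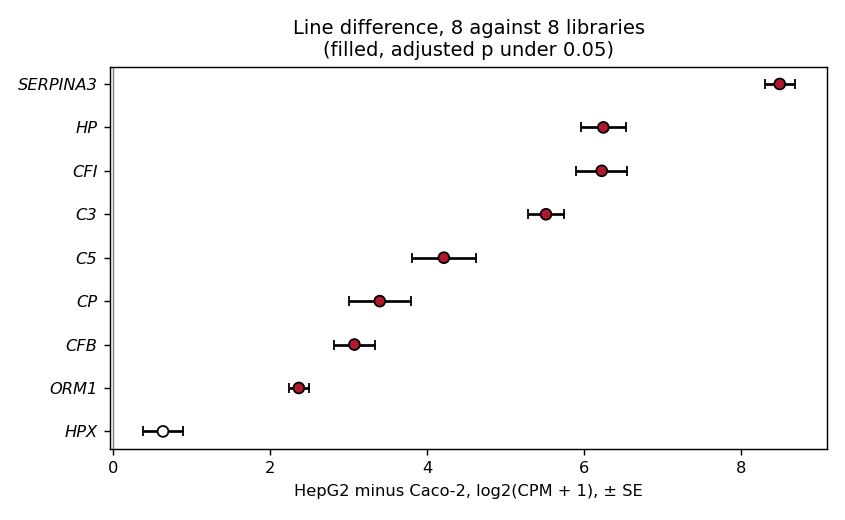
Difference between HepG2 and Caco-2 (x axis, log2(CPM + 1), ± SE of limma, 8 libraries against 8) for the 9 members (y axis). Filled points have an adjusted p under 0.05, and the open point, HPX at 0.64, does not.

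Some of these genes share sequence with another gene, which limits what a read count can say. GENCODE 44 places readthrough genes over 3 members: AL645922.1, which joins C2 and CFB, AC126283.2 over CFI, and AL049839.2 over SERPINA3. Of the exonic bases of AL049839.2, 51.7% are also exonic in SERPINA3, and the shares were 55.3% for AL645922.1 and 65.5% for AC126283.2. These features carried about as many reads as the members themselves. In HepG2, AL049839.2 held 48.2% of the reads of the SERPINA3 pair (47.4% to 50% by library), AC126283.2 held 50.1% of the CFI pair and AL645922.1 held 59.6% of the CFB pair. In Caco-2 the CFI pair split otherwise, with 55 reads for AC126283.2 and 3 for CFI. The study's methods name STAR and RSEM for its mRNA sequencing without saying for which platform, the labels name minimap2, and how such reads were divided in these libraries is not given, so the levels of CFB, CFI and SERPINA3 may be understated and are uncertain. With the partner's reads added, the pooled ratio between the lines was 540 for SERPINA3 against 525 alone and 8.14 for CFB against 7.78, but 18.6 for CFI against 179.

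**Figure D3:**
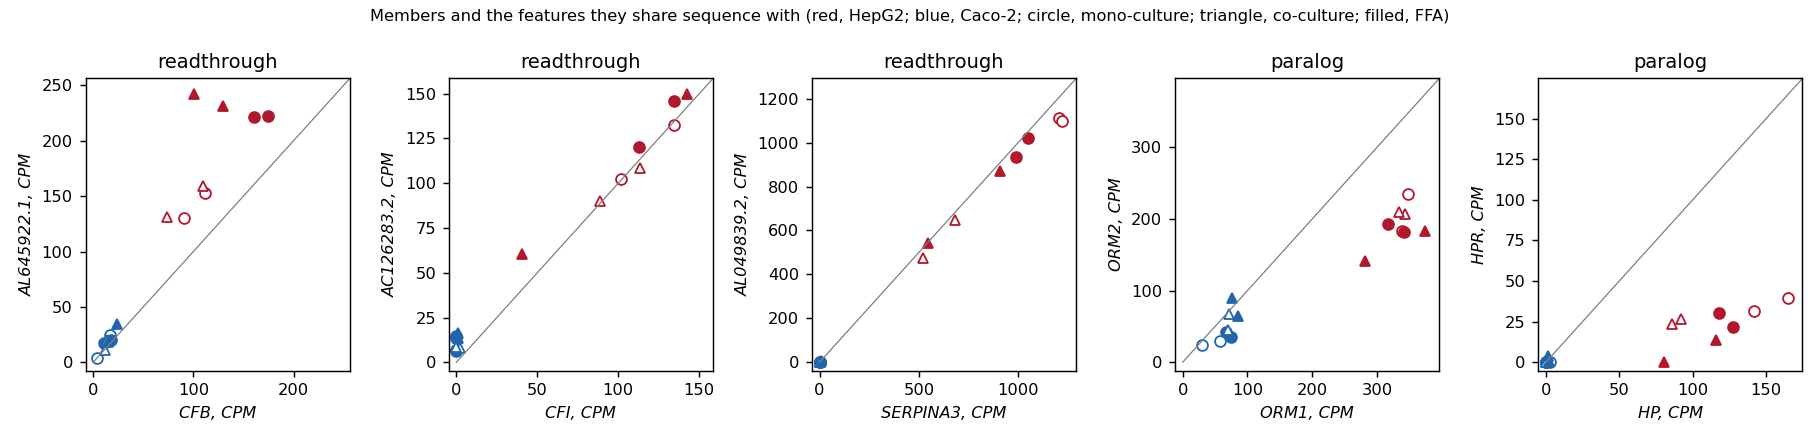
Level of the partner feature (y axis, CPM) against the member (x axis, CPM) in the 16 libraries, with the line of equal levels. SERPINA3 and CFI lie along that line in HepG2, where the partners held 48.2% and 50.1% of the pair's reads, AL645922.1 lies above it, and ORM2 and HPR lie below it in HepG2.

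The other kind of sharing is with near-identical paralogs. The canonical transcripts of ORM1 and ORM2, neighbours on chromosome 9, matched at 95.9% of 759 aligned bases, and those of HP and HPR at 96.1% of 1124. The stretch of 60 coding bases in which ORM1 and ORM2 differ most (GRCh38, plus strand, from the GENCODE 44 transcripts; chr9:114324799-114324858 and chr9:114331576-114331635) is shown because reads can be told apart only at such places, with the 14 bases that differ in capitals.
ORM1: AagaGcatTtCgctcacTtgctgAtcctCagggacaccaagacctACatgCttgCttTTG
ORM2: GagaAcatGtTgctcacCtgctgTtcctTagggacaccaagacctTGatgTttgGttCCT
ORM2 held 37.8% of the reads of the pair in HepG2 and 44.8% in Caco-2, and HPR held 19.6% of the HP pair in HepG2. With the paralog's reads added, the pooled ratio between the lines was 84.5 for HP against 136 alone, and 4.59 for ORM1 against 5.17.

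In HepG2 cells, co-culture with Caco-2 cells went with lower SERPINA3 and HP. This comparison asks what the presence of gut cells does to the liver line. SERPINA3 had 1207 and 1219 CPM in mono-culture controls and 680 and 520 in co-culture controls. With FFA it had 989 and 1048 CPM in mono-culture and 911 and 544 in co-culture. All 4 mono-culture libraries were above all 4 co-culture libraries. HP had 165 and 142 CPM in mono-culture controls against 85.7 and 92.0 in co-culture controls, and with FFA 118 and 127 against 116 and 80.6. Its 4 mono-culture libraries also lay above the 4 of co-culture, with the nearest pair at 118 and 116 CPM. SERPINA3 and HP were the 2 members of 9 with no overlap in this direction, against 1.19% of the 14430 features tested, and no member had all 4 co-culture libraries above all 4 of mono-culture, against 1.12% of features.

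Whether this difference passed depended on the test. Without FFA, limma gave -1.03 (SE 0.23, unadjusted p = 0.00182) for SERPINA3 and -0.78 (SE 0.25, unadjusted p = 0.014) for HP on the log2 scale, both with an adjusted p of 1. It called 0 of 9 members and 0% of features, while 377 of 14430 features had an unadjusted p under 0.05. edgeR's quasi-likelihood test on the recovered reads called SERPINA3 (-1.05, adjusted p = 7.65e-05) and HP (-0.82, adjusted p = 0.0199), 2 of the 7 members it tested, against 0.347% of 4030 features, which leave out features with few reads. DESeq2 called SERPINA3 (-1.07, SE 0.21, adjusted p = 0.000135), against 0.0836% of 9573 features, and gave HP no adjusted p. Averaged over treatment, the differences were -0.78 (SE 0.16, limma adjusted p = 0.483) for SERPINA3 and -0.56 (SE 0.18, adjusted p = 0.624) for HP, again with 0 of 9 members and 0% of features called and 1114 features at an unadjusted p under 0.05. There edgeR called SERPINA3 alone (adjusted p = 0.000614, against 1.17% of features), as did DESeq2 (adjusted p = 7.80e-06, against 1.02%). Over the 23 settings tried, the SERPINA3 difference without FFA ran from -1.22 to -0.83, with adjusted p-values from 7.65e-05 to 1. Added to AL049839.2, SERPINA3 differed by -1.04 without FFA (edgeR adjusted p = 0.000282, against 0.298% of features) and by -0.80 on average (adjusted p = 0.000512, against 1.12%). Without HepG2 co-culture FFA replicate 1, limma called SERPINA3 (-0.97, adjusted p = 0.0102), HP (-0.69, adjusted p = 0.0282) and CFI (-0.90, adjusted p = 0.0306) for co-culture averaged over treatment, among 1249 features called. A lower share of cells making these RNAs and less RNA per cell cannot be told apart in bulk libraries.

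With all libraries, no other member passed any of these tests. In controls C3 had 227 and 236 CPM in mono-culture against 203 and 173 in co-culture, and C5 had 51.1 and 36.2 against 16.3 and 20.1. C3, C5, HP, HPX and SERPINA3 had both mono-culture control libraries above both co-culture control libraries, 5 of 9 members against 12.4% of features, but C5 rested on 19 to 37 reads a library and had a limma log2 difference of -1.20 with an SE of 0.75. All 9 limma estimates without FFA were below 0, with a median of -0.39, against a median of 0.05 over all features. Over the settings tried, CP ran from -1.08 to 2.20 and CFB from -0.47 to 0.12, while the other members stayed below 0. The 9 estimates come from the same libraries, so their common sign is a description. ORM1 was the steadiest, at 339 and 348 CPM in mono-culture controls and 343 and 334 in co-culture controls (log2 difference -0.02, SE 0.17). The summed hepatocyte markers were not lower in co-culture, at 37537 and 43725 CPM in co-culture controls against 34006 and 36753 in mono-culture controls. Enterocyte markers summed to 42.3 and 48.3 CPM in HepG2 co-culture controls and to 47.9 and 48.8 in mono-culture controls. With FFA they summed to 81.6 and 121 CPM in co-culture, the shallowest libraries, and to 29.1 and 37.7 in mono-culture. In co-culture with FFA only VIL1, FABP2 and ANPEP of these markers had reads. Their relation to the SERPINA3 and HP levels was not tested.

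**Figure D4:**
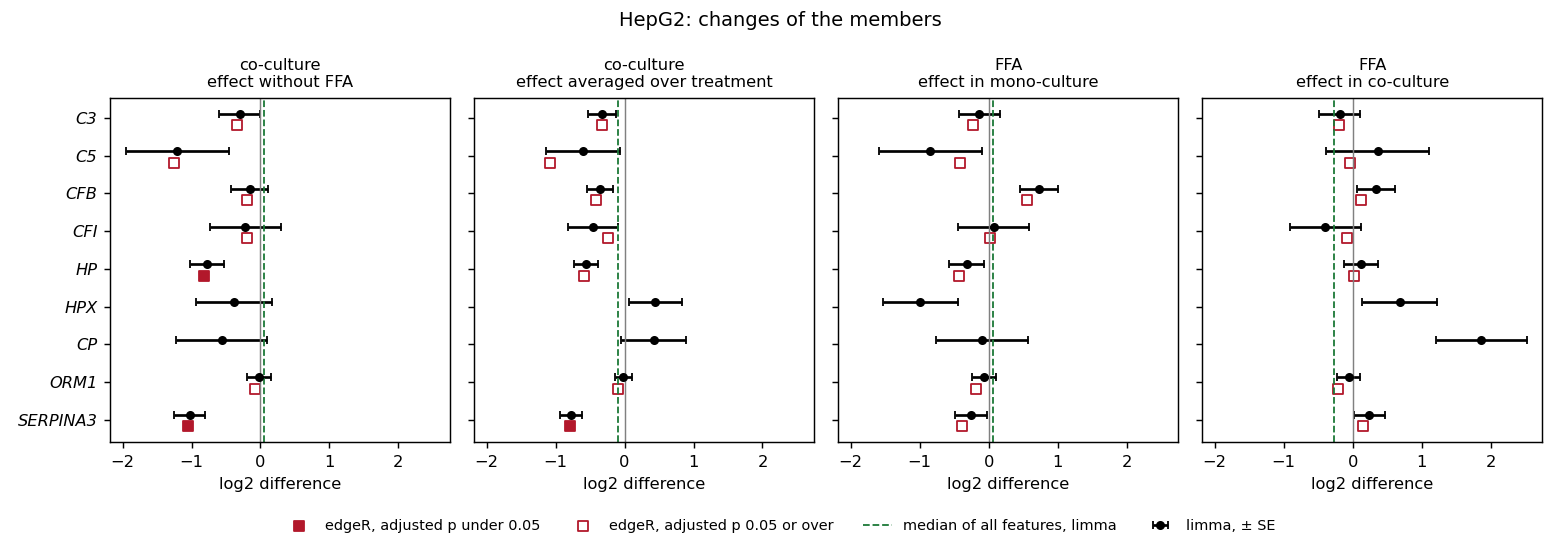
Log2 difference (x axis) of each member (y axis) in HepG2 for co-culture against mono-culture, without FFA and averaged over treatment, and for FFA against control in each culture. Black points are limma estimates with their SE, squares are edgeR estimates, filled where the adjusted p was under 0.05 (SERPINA3 and HP without FFA, SERPINA3 averaged), and the dashed line is the median of all features.

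No HepG2 member passed for FFA. CFB had 90.5 and 111 CPM in mono-culture controls and 160 and 175 with FFA, and 109 and 74.0 in co-culture controls and 129 and 101 with FFA. In mono-culture both FFA libraries were above both controls, which held for CFB alone of the 9 members and for 20.2% of features. The log2 difference was 0.73 (SE 0.27, unadjusted p = 0.0272, limma adjusted p = 0.76) in mono-culture and 0.53 (SE 0.19, adjusted p = 0.288) averaged over culture. limma called 0 of 9 members in mono-culture (0% of features, 904 at an unadjusted p under 0.05), 0 of 9 in co-culture (0%, 2297) and 0 of 9 on average (0.0762%, 1994). edgeR called no member in these 3 comparisons, against 0.744%, 7.99% and 13.3% of features, and neither did DESeq2, against 0.23%, 3.28% and 3.92%.

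The readthrough feature that joins C2 and CFB, and shares 55.3% of its exonic bases with CFB, also had higher levels with FFA. C2 itself had group means of 51.6 CPM in mono-culture controls and 60.3 with FFA, and 59.9 in co-culture controls and 128 with FFA. How far AL645922.1 follows C2 rather than CFB was not tested. AL645922.1 had 130 and 152 CPM in mono-culture controls and 221 and 222 with FFA, and 159 and 131 in co-culture controls and 231 and 242 with FFA. CFB and AL645922.1 together had 242 ± 30.7 CPM (SD, n = 2) in mono-culture controls, 389 ± 10.6 with FFA, 237 ± 44.8 in co-culture controls and 351 ± 12.6 with FFA. The sum differed by 0.42 on the log2 scale averaged over culture (edgeR adjusted p = 0.0427, against 13.3% of features called), where AL645922.1 alone also passed (0.46, adjusted p = 0.0474) and CFB alone did not (0.34, adjusted p = 0.307). It differed by 0.63 (SE 0.13, adjusted p = 0.134) with limma. This sum was formed after the values were seen.

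CP had 34.0 and 20.2 CPM in co-culture with FFA and 4.22 to 11.8 CPM in the other 6 HepG2 libraries. Those values were 5 reads and 1 read, in the shallowest pair of libraries, and the log2 difference between FFA and control in co-culture was 1.87 (SE 0.66, limma adjusted p = 0.266). HPX had 15.1 and 16.9 CPM in co-culture controls and 34.0 and 20.2 with FFA, again 5 reads and 1 read. These were the 2 members with both co-culture FFA libraries above both controls, against 17.4% of features. The median of all features in that comparison was -0.26. HP and SERPINA3 had log2 differences of -0.32 (SE 0.25) and -0.25 (SE 0.23) with FFA in mono-culture and 0.12 (SE 0.25) and 0.24 (SE 0.23) in co-culture. Without HepG2 co-culture FFA replicate 1, CFI was called for FFA in co-culture (-1.30, limma adjusted p = 0.0242), among 2546 features called, with its remaining FFA library at 2 reads. The interaction of FFA and culture passed for 0 of 9 members in HepG2 (0% of features, 1002 at an unadjusted p under 0.05), also by edgeR and DESeq2.

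In Caco-2 cells, with all libraries, no member passed in any of the 6 comparisons of treatment and culture. limma called 0.00647% of the 15454 features for FFA in mono-culture (896 at an unadjusted p under 0.05), 0% in co-culture (754) and 0% averaged over culture (750). For co-culture it called 0.0971% without FFA (1594) and 0.453% averaged over treatment (1820), and for the interaction 0% (776). edgeR tested 1 member here, ORM1, and did not call it. It called 0.152%, 0.109% and 0.196% of features for FFA, 1.39% and 8.49% for co-culture and 0.0435% for the interaction. DESeq2 tested 4 members and called none, against 0.0393%, 0.00982% and 0% of features for FFA, 0.589% and 0.963% for co-culture and 0.00982% for the interaction.

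ORM1 was the Caco-2 member with enough reads for a view of the conditions. It had 57.5 and 29.4 CPM in mono-culture controls, 74.2 and 67.5 in mono-culture with FFA, 71.3 and 70.6 in co-culture controls and 75.9 and 85.0 in co-culture with FFA. In a split that was not among the planned comparisons, the 6 other libraries all lay above both mono-culture controls, which ORM1 and HPX of the 9 members showed, against 4.98% of features. Its log2 difference was 0.77 (SE 0.29, limma adjusted p = 0.408) for co-culture without FFA and 0.77 (SE 0.29, adjusted p = 0.837) for FFA in mono-culture. Without Caco-2 mono-culture control replicate 1, the higher of the controls, both were 1.24 (limma adjusted p = 0.0158 and 0.0161), while the calls over all features went up to 624 and 607 of 15828. HPX had 5.48 and 5.88 CPM in mono-culture controls, 14.8 and 8.03 with FFA, 11.9 and 17.0 in co-culture controls and 12.3 and 18.5 in co-culture with FFA, each from 2 to 15 reads.

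ORM2 showed a like order of groups in Caco-2, with 30.1 and 23.5 CPM in mono-culture controls and 89.3 and 65.3 in co-culture with FFA. The sum of ORM1 and ORM2 was 70.2 ± 24.5 CPM (SD, n = 2) in mono-culture controls, 109 ± 0.331 with FFA, 127 ± 16.1 in co-culture controls and 158 ± 10.5 in co-culture with FFA. Its co-culture difference averaged over treatment was 0.66 on the log2 scale (edgeR adjusted p = 0.00682, against 8.49% of features called) and 0.71 (SE 0.17, adjusted p = 0.0905) with limma. ORM2 alone passed edgeR for this effect (0.98, adjusted p = 0.0043) and ORM1 alone did not (0.43, adjusted p = 0.184), so the call of the sum was not one of ORM1. The sum was again formed after the values were seen. Hepatocyte markers summed to 7011 to 7432 CPM in the Caco-2 co-culture libraries and to 5095 to 5862 in mono-culture, and their part in the ORM1 and ORM2 levels was not tested. ORM1 and ORM2 in Caco-2 stood at 19.8% and 25.9% of their HepG2 means. Among the 12 hepatocyte markers this share was lowest for TF (0.174%), which had at most 5.94 CPM in any Caco-2 library. It was 12.6% for APOH, 31.1% for AHSG and 128% for TTR, and higher still for APOC3 and VTN.

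No member's response was shown to differ between the lines. Over 72 tests of interaction (the line by each effect, and FFA by culture within each line), the smallest limma adjusted p was 0.127, for SERPINA3 and the co-culture effect averaged over treatment (log2 difference between the lines -1.75). The effect was -0.78 in HepG2 and 0.97 in Caco-2, where SERPINA3 rested on 0 to 3 reads a library.

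Among other complement genes fewer were detected. Of 24 other complement components, 13 passed the filter for the line comparison, 6 were called higher in HepG2 and 1 lower, with a median log2 difference of 0.62. These calls were 53.8% of the 13, against 30.3% of all features called between the lines by limma. C2, which cleaves C3 in the classical pathway, had group means of 51.6 to 128 CPM in HepG2 and 4.38 to 7.50 in Caco-2 (log2 difference 3.69, SE 0.33, limma adjusted p = 1.11e-06). C4B was listed at 0 in all 8 Caco-2 libraries and had group means of 16.5 to 28.9 CPM in HepG2, and C4A had at most 20.5 CPM as a HepG2 group mean and 1 read in Caco-2. C4A and C4B are near-identical copies, so reads may be split between them.

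The membrane regulator CD55 was higher in the gut line, and CD46 was so on average over the 4 conditions but not in mono-culture controls. Of 11 complement regulators and receptors tested, 1 was higher in HepG2 and 4 lower. These calls were 45.5% of the list, against 30.3% of all features called between the lines by limma. CLU (clusterin, which blocks the membrane attack complex) was higher in HepG2 by 2.34 (SE 0.12, limma adjusted p = 2.04e-09). CD55 (decay-accelerating factor) was lower by 2.71 and CD46 (membrane cofactor protein) by 1.81, both membrane proteins that protect cells from complement. In Caco-2, CD55 was also the gene of this list that passed for co-culture averaged over treatment (log2 difference -0.80, SE 0.15, limma adjusted p = 0.0317, against 0.453% of features). It had 130 ± 9.31 CPM (SD, n = 2) in mono-culture controls, 150 ± 7.89 with FFA, 90.1 ± 12.5 in co-culture controls and 71.2 ± 10.8 in co-culture with FFA.

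Of 15 genes tested from a list named other positive acute-phase proteins, 11 were higher in HepG2 and none lower, with a median log2 difference of 3.61. The list was fixed by symbol, and whether each of its genes, A2M among them, rises in human inflammation was not tested. That was 73.3% of the list, against 12.5% of all features called higher in HepG2 by limma. A2M (alpha-2-macroglobulin) differed by 7.89, FGA by 7.87 and FGG by 6.23, the latter a pair of fibrinogen chains. None of these 15 passed a limma comparison within a line. edgeR called ORM2 (0.98, adjusted p = 0.0043) and FGG (0.62, adjusted p = 0.0294) higher in Caco-2 co-culture averaged over treatment, against 8.49% of features. In HepG2 co-culture averaged over treatment, 13 of them were tested, with a median of 0.11, against -0.35 for the 9 members and -0.09 for all features.

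Of 8 negative acute-phase genes, 7 were higher in HepG2 and TTR lower, with the largest differences for TF (8.71), SERPINC1 (4.31) and ALB (3.97). All 8 were called, against 30.3% of all features called between the lines by limma. In HepG2, AHSG (fetuin-A) was the gene of this list that passed limma for FFA averaged over culture (0.41, SE 0.05, limma adjusted p = 0.0372, against 0.0762% of features). It went from 2846 ± 2.65 to 3930 ± 132 CPM (SD, n = 2) in mono-culture and from 2724 ± 95.1 to 3469 ± 79.9 in co-culture. edgeR did not call AHSG there, and instead called TTR lower (-0.59, adjusted p = 0.000705) and TF higher (0.47, adjusted p = 0.0116), against 13.3% of features. By edgeR TTR was also lower with FFA in mono-culture (-0.72, adjusted p = 0.0112, against 0.744% of features). TF was higher with FFA in co-culture (0.83, edgeR adjusted p = 0.0057, against 7.99%), where the FFA libraries held 147096 and 49634 reads. For HepG2 co-culture averaged over treatment the median of the 8 was 0.53. There limma called 0 and edgeR called 3, against 1.17% of features by edgeR. All 3 were higher: APOA1 (0.67, edgeR adjusted p = 0.00136), TF (0.66, adjusted p = 0.00276) and SERPINA6 (0.83, adjusted p = 0.0156). SERPINA6 was also called without FFA (0.90, edgeR adjusted p = 0.0178, against 0.347% of features). In Caco-2 co-culture TTR (0.58, SE 0.09, limma adjusted p = 0.0114) and APOA1 (0.38, SE 0.07, adjusted p = 0.0226) were higher on average over treatment, against 0.453% of features by limma. edgeR called both and SERPINA6 (1.23, adjusted p = 0.0151), against 8.49% of features. Genes of these lists that edgeR alone called were named after their values were seen.

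Of 17 receptors and transcription factors of the acute-phase response, 1 was called higher in HepG2 and 4 lower by limma. These calls were 29.4% of the list, near the 30.3% of all features called between the lines. The largest differences were those of IL1RAP (-1.94), HNF4A (-1.64) and CEBPA (-1.20), at group means of 0 to 20.3 CPM in HepG2. None passed within a line with limma. edgeR called NFKBIA, an inhibitor of NF-kB, higher in HepG2 for co-culture averaged over treatment (1.37, adjusted p = 0.0168, against 1.17% of features). It also called NFKBIA higher for FFA in co-culture (1.31, edgeR adjusted p = 0.0497, against 7.99%). Group means were 21.1, 24.6, 34.3 and 108 CPM in mono-culture control, mono-culture FFA, co-culture control and co-culture FFA. In the libraries of the last group 1 read stood for 6.80 and 20.1 CPM.

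Over the 8 HepG2 libraries, the features most like a member in level were named by Pearson's r of log2(CPM + 1) among the 1167 features whose HepG2 mean reached 100 CPM. The points share library depth, and 4 of the libraries are co-cultures, so the values are a description. SERPINA3 was closest to its own readthrough feature (0.995) and then to SPINK1 (0.946), a secreted trypsin inhibitor. HP was closest to SPINK1 (0.954) and SOD2 (0.941), the mitochondrial superoxide dismutase. SPINK1 had 262 ± 19.3 CPM (SD, n = 2) in mono-culture controls, 198 ± 3.25 with FFA, 122 ± 6.51 in co-culture controls and 162 ± 58.7 in co-culture with FFA. CFB was closest to CYCS (0.865) and MT-ND4 (0.865), C3 to RPL36AL (0.975) and DDX21 (0.952), CFI to AC126283.2 (0.968) and LARS (0.963), and ORM1 to CALU (0.926) and MTDH (0.913). Between members, r was 0.933 for SERPINA3 and HP, 0.924 for C3 and CFI and 0.0865 for CFB and ORM1.

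Promoter sequence was in the RefSeq table (GRCh38.p14) for 6 of the 9 members, C5 with 2 starts, and C3, HP and CP were not in it. The 250 bases before each start were searched on both strands for TTCNNNGAA (the STAT element), TTGCNNAA (a C/EBP core) and GTTAAT (a half-site of HNF1), which 6.57%, 9.05% and 6.23% of all 35116 promoters in the table hold. The upstream stretch of SERPINA3, the member with the largest difference in HepG2 co-culture that a test called, is printed with that of HPX, the member whose level did not pass between the lines. Both are given 5′ to 3′ on the gene's strand without bases that are exonic in any transcript, for SERPINA3 at chr14:94612141-94612296 and for HPX at chr11:6441067-6441237 (minus strand), with matches in capitals.
SERPINA3: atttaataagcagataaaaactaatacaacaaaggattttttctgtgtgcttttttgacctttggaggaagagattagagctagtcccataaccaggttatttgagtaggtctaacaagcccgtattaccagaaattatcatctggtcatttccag
HPX: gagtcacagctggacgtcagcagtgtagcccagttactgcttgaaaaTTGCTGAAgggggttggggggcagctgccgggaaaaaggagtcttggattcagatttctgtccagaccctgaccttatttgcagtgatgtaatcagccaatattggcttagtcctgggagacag
The whole 250-base windows of SERPINA3 and ORM1 held none of the 3 motifs. HPX held a C/EBP core, and C5 (at 1 of its 2 starts) and CFI held an HNF1 half-site. CFB held a STAT element 92 to 84 bases before its start. In HepG2 mono-culture both FFA libraries of CFB were above both controls, as for 20.2% of features, but it did not pass (limma adjusted p = 0.76). In co-culture its FFA and control libraries overlapped. A link between the element and the level was not tested. The element lies within the gene's annotated span and outside the longest exon-free stretch of the window (chr6:31945845-31945974). It is shown in capitals with 10 bases on each side (chr6:31945993-31946021, plus strand).
CFB: cgcttggatgTTCCGGGAAagtgatgtgg
A match is a run of letters and says nothing of binding in these cells.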

How the data were processed

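RNA from each culture was converted to cDNA with a PCR barcoding kit and read on an Oxford Nanopore device. Per the labels' processing notes the authors mapped reads to GRCh38 with minimap2 2.22, and the study's methods name STAR and RSEM without saying for which platform, so the counting tool of these libraries is uncertain. The deposited values are named TPM, but within a library they are whole multiples of 1 step, so they were treated as deposited CPM (98.9% to 100% of values were whole within 0.05 read). The step gave the reads of each library. PCR reads carry no molecular identifiers, so intervals and floors cover counting error only.

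Features with a group mean of at least 1 CPM were tested on log2(CPM + 1), for each line over its 8 libraries and for the line difference over all 16, with limma 3.58.1 (trended prior variance, Benjamini-Hochberg adjustment over all features tested) in R 4.3.3. This test, planned on the belief that values were TPM, was kept. A fold on this scale understates changes of low genes. edgeR 4.0.16 and DESeq2 1.42.0 on the recovered reads and the other settings were alternatives. The scripts were tested on simulated data. Positions come from GENCODE 44, in which 99.5% of identifiers were found. The members and lists were chosen with earlier results of these data known. The genes named are the members, for each list the genes that passed a comparison within a line (at most 3), the 3 with the largest line difference, and for each member whose HepG2 mean reached 100 CPM the 2 features with the highest correlation.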

Additional observations from a re-analysis of the deposited data

How the results depend on the processing

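The number of members called between the lines was 8 and stayed within 7 to 9 under every alternative. Within a line limma called none, and that count moved as follows. In HepG2 co-culture without FFA, edgeR called 2, DESeq2 1, and edgeR with partner reads added 2. For HepG2 co-culture averaged over treatment, quantile normalization, edgeR, DESeq2 and edgeR with partner reads added each called 1, always SERPINA3. Partner reads, added after seeing the data, also gave edgeR 1 call for HepG2 FFA averaged over culture (CFB with AL645922.1) and 1 for Caco-2 co-culture averaged over treatment (ORM1 with ORM2). In both, the partner alone passed edgeR and the member alone did not. With thresholds the study used (unadjusted p under 0.05, fold of at least 1.2) 1 member was called in each of the 3 HepG2 FFA effects, 2 in each HepG2 co-culture effect, 1 and 2 for Caco-2 FFA in mono-culture and averaged, 2 and 1 for Caco-2 co-culture without FFA and averaged, and 1 for the Caco-2 interaction. These thresholds called 887, 2291 and 1953 of 14430 features for the HepG2 FFA effects, 376 and 1071 for HepG2 co-culture without FFA and averaged, and 723 to 1779 of 15454 in those Caco-2 comparisons.

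Leaving out 1 library at a time gave 8 to 9 members between the lines. In HepG2 it gave 0 to 1 for FFA in co-culture and 0 to 3 for co-culture averaged over treatment, both from leaving out HepG2 co-culture FFA replicate 1, which left the shallowest library alone in its group and raised the calls over all features from 0 to 2546 and 1249. The members called were CFI, and SERPINA3, CFI and HP. In Caco-2 it gave 0 to 1 in 5 of 6 comparisons, without mono-culture control replicate 1 (ORM1), mono-culture FFA replicate 2 (CP) or co-culture control replicate 2 (CFI), with 607 to 787, 312 to 352 and 476 to 578 features called in those comparisons. A lone library was assumed to vary like the other groups.

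The replicate numbers were not taken to pair libraries: over all features, deviations of same-numbered HepG2 libraries correlated at -0.017 to 0.024 and those of Caco-2 at -0.0047 to 0.032. Over features of at least 100 CPM the values were -0.10 to 0.12 and -0.017 to 0.29, not above 0.1 in every pair. A fit with the replicate number as a block called 8 members between the lines and 0 in each comparison within a line. Of 2547 single-member values under alternatives, 45 passed where limma had not, 1 no longer passed (CP between the lines, thinned), none reversed after passing, and 109 differed in sign without passing. In the shallowest library, HepG2 co-culture FFA replicate 2, a count of 0 allows up to 60.4 CPM, above the HepG2 levels of C5, HPX and CP.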

Other observations

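Of 7 leukocyte and macrophage genes, LYZ (lysozyme) carried nearly all reads in HepG2, where its level was 604 to 859 CPM against 5.88 to 19.8 CPM in Caco-2. CD68, a lysosomal protein, had 37.6 to 63.0 CPM in Caco-2 and 0 to 20.4 CPM in HepG2. CD14 and CD163 had no read in any HepG2 library and reached at most 9.23 and 2.82 CPM in Caco-2. The enterocyte marker FABP2, a fatty-acid-binding protein, had 2.11 to 20.2 CPM in the HepG2 libraries and at most 1.98 CPM in Caco-2.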
